A study of Rattus norvegicus with 8 samples.

Results

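Solute carriers, the membrane proteins whose genes are named Slc, were followed across the livers of lean and obese rats given vehicle or testosterone undecanoate (TU). The members were the genes whose array accession mapped to a symbol beginning with Slc, less 8 such genes left out by the selection, each represented by its brightest probe. Of 305 such genes with a probe, 226 lay well above background in either dye on at least 4 of 8 arrays and were measured, among 24130 features in all. The other 79 were below that limit and were not tested. Male Zucker diabetic fatty rats of 12 weeks were compared on 8 dual-colour Agilent arrays, 4 of lean animals (fa/+) and 4 of obese animals (fa/fa), which lack a working leptin receptor and are a genetic model of obesity with diabetes. The dye Cy3 marked liver RNA from rats given vehicle and the dye Cy5 that from rats given TU, an ester from which testosterone is released slowly, on all 8 arrays. Doses of 20 mg/kg went under the skin for 4 weeks, at intervals of 3 days in the first 2 weeks and once a week in the last 2. The arrays are labelled as biological replicates, no source used here says whether each RNA came from 1 animal, and p-values then measure only the spread between these samples.

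Solute carriers move sugars, amino acids, organic ions, metals, nucleosides and metabolites across the plasma membrane, across organelle membranes and, for the Slc25 family, across the inner mitochondrial membrane. Most work as exchangers, as cotransporters coupled to sodium or protons, or as facilitators that let a solute run down its gradient. In liver they take up bile acids, drugs and nutrients from portal blood and feed gluconeogenesis, ammonia disposal and lipid synthesis.

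Promoters are shown for 6 members. Slc38a7 and Slc26a1 were both members called after TU in lean rats. Slc2a5, Slc16a11, Slc30a5 and Slc30a1 were chosen from the members called between obese and lean rats in both dyes. Each line gives the 250 bases before the annotated start, 5′ to 3′ on the strand of the gene, from RefSeq on build GRCr8, in lower case with matches to any of 5 motifs in capitals. The motifs were CACGTG (an E box), TGCACNC and TGCGCNC (forms of the metal response element), AGAACA (a half-site of androgen and glucocorticoid receptors) and AGGTCA (a half-site of other nuclear receptors), searched on both strands. No matches to different motifs overlapped in these 6 sequences.
Slc2a5 (chr5:165865929-165866178, plus strand): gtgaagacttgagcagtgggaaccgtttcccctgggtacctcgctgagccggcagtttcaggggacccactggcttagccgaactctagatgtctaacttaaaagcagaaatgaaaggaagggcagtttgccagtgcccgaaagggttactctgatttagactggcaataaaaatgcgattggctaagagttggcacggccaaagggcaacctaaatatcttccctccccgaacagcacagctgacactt
Slc30a1 (chr13:106021769-106022018, plus strand): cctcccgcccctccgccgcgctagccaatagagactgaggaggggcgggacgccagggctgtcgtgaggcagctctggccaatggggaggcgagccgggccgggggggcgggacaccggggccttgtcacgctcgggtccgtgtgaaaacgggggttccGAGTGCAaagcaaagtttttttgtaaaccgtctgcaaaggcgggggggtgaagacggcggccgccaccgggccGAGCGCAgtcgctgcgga
Slc30a5 (chr2:33709899-33710148, minus strand): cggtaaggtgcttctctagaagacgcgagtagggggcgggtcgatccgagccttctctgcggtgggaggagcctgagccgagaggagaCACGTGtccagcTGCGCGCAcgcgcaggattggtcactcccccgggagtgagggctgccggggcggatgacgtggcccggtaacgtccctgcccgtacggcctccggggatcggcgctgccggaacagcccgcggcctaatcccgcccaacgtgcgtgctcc
Slc16a11 (chr10:55427705-55427954, plus strand): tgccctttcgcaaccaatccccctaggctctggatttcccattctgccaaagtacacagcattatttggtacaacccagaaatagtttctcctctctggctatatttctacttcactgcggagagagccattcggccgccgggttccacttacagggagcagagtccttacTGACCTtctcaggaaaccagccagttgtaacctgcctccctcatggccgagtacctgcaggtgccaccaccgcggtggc
Slc38a7 (chr19:9215128-9215377, plus strand): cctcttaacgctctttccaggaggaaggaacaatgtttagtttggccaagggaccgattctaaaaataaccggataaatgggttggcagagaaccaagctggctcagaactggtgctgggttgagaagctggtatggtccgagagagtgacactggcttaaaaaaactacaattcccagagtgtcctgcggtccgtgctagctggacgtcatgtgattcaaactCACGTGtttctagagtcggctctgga
Slc26a1 (chr14:1184721-1184970, plus strand): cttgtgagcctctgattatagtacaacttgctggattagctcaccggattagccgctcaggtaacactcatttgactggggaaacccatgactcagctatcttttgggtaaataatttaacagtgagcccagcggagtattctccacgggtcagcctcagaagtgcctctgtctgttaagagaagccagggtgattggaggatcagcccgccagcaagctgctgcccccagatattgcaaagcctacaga
Slc30a1 held 1 match to TGCACNC and 1 to TGCGCNC, Slc30a5 held 1 to CACGTG and 2 to TGCGCNC, Slc38a7 held 1 to CACGTG and Slc16a11 held 1 to AGGTCA. In the windows of Slc2a5 and Slc26a1 none of these letters was found. Among 33469 promoters of the same length, CACGTG was in 5.59%, TGCACNC in 10.3%, TGCGCNC in 11.8%, AGAACA in 17.5% and AGGTCA in 14.1%. Every entry was counted there. Among the 181 measured members with an entry, only the first entry of each gene was counted. Their shares were 13.8%, 12.7%, 20.4%, 9.94% and 11%. A match describes the letters only.

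In Cy3 the share of probes well above background was 62.2% to 68.9% on lean arrays and 58.1% to 62.1% on obese arrays. In Cy5 it was 53.4% to 57.4% and 50.3% to 60.5%. Obese replicate 2 stood apart: the SD of the members' log2 ratios was 0.54 there and 0.11 to 0.33 on the other arrays. Each genotype had a slide and a scan of its own, and the effects of slide, scan and genotype cannot be told apart. The dyes were never swapped, and a ratio within a genotype therefore also holds the dye bias of its probe. The 9 hepatocyte markers were all measured. Their summed level overlapped in Cy3 (795703 to 940816 lean, 763594 to 1143690 obese, 3 markers higher) and was lower on every obese array in Cy5 (1085420 to 1316320 lean, 840122 to 1052100 obese, 2 higher and 1 lower). Among lists of other cells, the summed erythroid level (5 of 7 markers measured) was 24003 to 43979 in Cy3 on lean arrays and 54613 to 102849 on obese arrays, with 1 marker higher. In Cy5 the erythroid sums overlapped, while stellate and fibroblast markers (5 of 6 measured, Acta2 below) summed to 5336 to 5888 on lean and 7307 to 15676 on obese arrays, with 2 higher and 1 lower. Kupffer markers (10 of 10) summed in Cy5 to 44783 to 51111 on lean and 39311 to 43792 on obese arrays, with 1 higher and 2 lower. Lymphocyte markers (3 of 6) summed to 424 to 473 and 361 to 413 in Cy3, and no adipocyte marker was measured. The part of these cells in the differences below was not tested, and in whole liver fewer cells of a type and less RNA per cell cannot be told apart.

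The first question was how carriers responded to TU in lean animals. A pair fell: Slc38a7, a glutamine exporter of lysosomes, and Slc26a1, a sulfate and oxalate exchanger of the hepatocyte membrane. The log2 ratio of TU over vehicle of Slc38a7 was -0.59, -0.48, -0.35 and -0.42 on lean replicates 1 to 4 and -0.10, -0.28, -0.02 and -0.24 on obese replicates 1 to 4. Every lean value lay below every obese value, and all were below 0. The lean mean was 1.37-fold lower with TU (-0.46 ± 0.059 as log2 fold change with its SE, adjusted p = 0.0317 by limma, n = 4). For Slc26a1 the ratios were -0.45, -0.55, -0.31 and -0.42 on lean arrays and -0.16, -0.04 and -0.04 on obese replicates 1 to 3, with obese replicate 4 missing. Again the genotypes did not overlap. The lean mean was 1.35-fold lower (-0.43 ± 0.053, n = 4, limma adjusted p = 0.0351).

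These were 2 of 226 members called, where 0.204% of all features were called in this comparison, and neither was higher. At an unadjusted p under 0.05 stood 36 members, or 15.9%, beside 15.3% of all features and 16.2% of all named genes. The median log2 ratio of the members was -0.011 and that of all features -0.017. In the same comparison the 5 erythroid markers had a median of 0.79, with 1 higher, the 9 hepatocyte markers 0.30, with 1 higher, and the 5 stellate markers -0.29, with none called. Their part in the result was not tested. Both calls were lost without any 1 of lean replicates 1 to 4 or obese replicates 1 or 4, with adjusted p from 0.0565 to 0.197, and Slc26a1 also without obese replicate 3 (0.0800). Both were lost with ratios scaled between arrays (0.101 for Slc38a7 and 0.170 for Slc26a1) and with trend and robust settings (0.295 for both), and Slc26a1 from processed signals (0.116). With the replicate number as a block both were also lost (limma adjusted p = 0.0811 for Slc38a7 and 0.117 for Slc26a1).

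Further members stood out in lean rats without passing. Slc25a47, a mitochondrial carrier found mainly in liver, had ratios of 1.19, 2.14, 0.91 and 0.68 on the lean arrays, all above 0. On the obese arrays it had 0.78, 0.59, -0.35 and 0.31. Its lean mean was 1.23 ± 0.24 (adjusted p = 0.0850). Slc16a6, a monocarboxylate carrier through which ketone bodies leave the hepatocyte, stood at -0.62 ± 0.10 in lean rats (0.0641), and its other probe at 0.13. Slc22a18, an orphan organic cation carrier, stood at -0.31 ± 0.058 (0.0774) and Slc37a4, which brings glucose 6-phosphate into the endoplasmic reticulum for the last step of glucose release, at 0.34 ± 0.075 (0.107). Slc49a4 was at 0.42 (0.118), the potassium and chloride cotransporter Slc12a4 at -0.31 (0.121) and the sodium-glucose family member Slc5a4 at 0.30 (0.144). Slc2a10, a glucose carrier family member, was not well above background on any lean array in Cy3 and was at least 1.18-fold brighter in Cy5 (0.110), where processed signals gave a log2 ratio of 3.22 (adjusted p = 0.00680).

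Without obese replicate 2, whose spread enters the shared error, 16 members passed in lean rats, 5 higher and 11 lower, beside 4.61% of all features. Among them were Slc25a47 (adjusted p = 0.0325), Slc37a4 (0.0244), Slc16a6 (0.0210), Slc22a18 (0.0214), Slc12a4 (0.0437) and Slc2a10 (0.0459). When ratios were centred on the array median and not by loess, all features had a median of -0.21, and 57 members passed, 2 higher and 55 lower, or 25.2% beside 23.8% of all features. Without background correction 6 passed, 3 higher and 3 lower, or 2.65% beside 1.47%.

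In obese rats no member passed (limma, 35 at an unadjusted p under 0.05, or 15.5%, beside 12.6% of all features and 15.7% of all named genes). Of all features 0.0124% were called. The smallest p belonged to Slc13a5, the sodium-coupled citrate carrier that supplies cytosolic citrate. Its ratios were 0.34, 0.76, 0.20 and 0.40 on obese arrays and 0.26, 0.41, 0.23 and 0.30 on lean arrays. All 8 lay above 0. Its obese mean was 0.43 ± 0.082 (adjusted p = 0.211), and from processed signals it was 0.83 (0.0406). Slc37a4 was again above 0 on every array measured, at 0.39, 0.69 and 0.31 on obese replicates 1 to 3 and 0.42, 0.48, 0.25 and 0.23 on lean arrays. Its obese mean was 0.46 ± 0.087 (n = 3, adjusted p = 0.216), and its other probe gave 0.51. With ratios centred on the array median, the mean of Slc37a4 was -0.13 in lean and 0.98 in obese rats (limma adjusted p = 0.734 and 0.712). The intestinal and hepatic zinc importer Slc39a4 was at -0.66 ± 0.14 (0.223), with -0.92, -0.54, -1.02 and -0.17. The amino acid carrier Slc38a4 stood at 0.27 (0.248), Slc22a18 at -0.26 (0.262), Slc5a10 at -0.27 (0.287) and Slc22a23 at -0.53 (0.347). The uptake carrier of bile acids and drugs Slco1b2 was at 0.34 (n = 3, 0.309), the zinc importer Slc39a10 at -0.20 (0.336) and the magnesium carrier Slc41a3 at 0.24 (0.354).

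**Figure D1:**
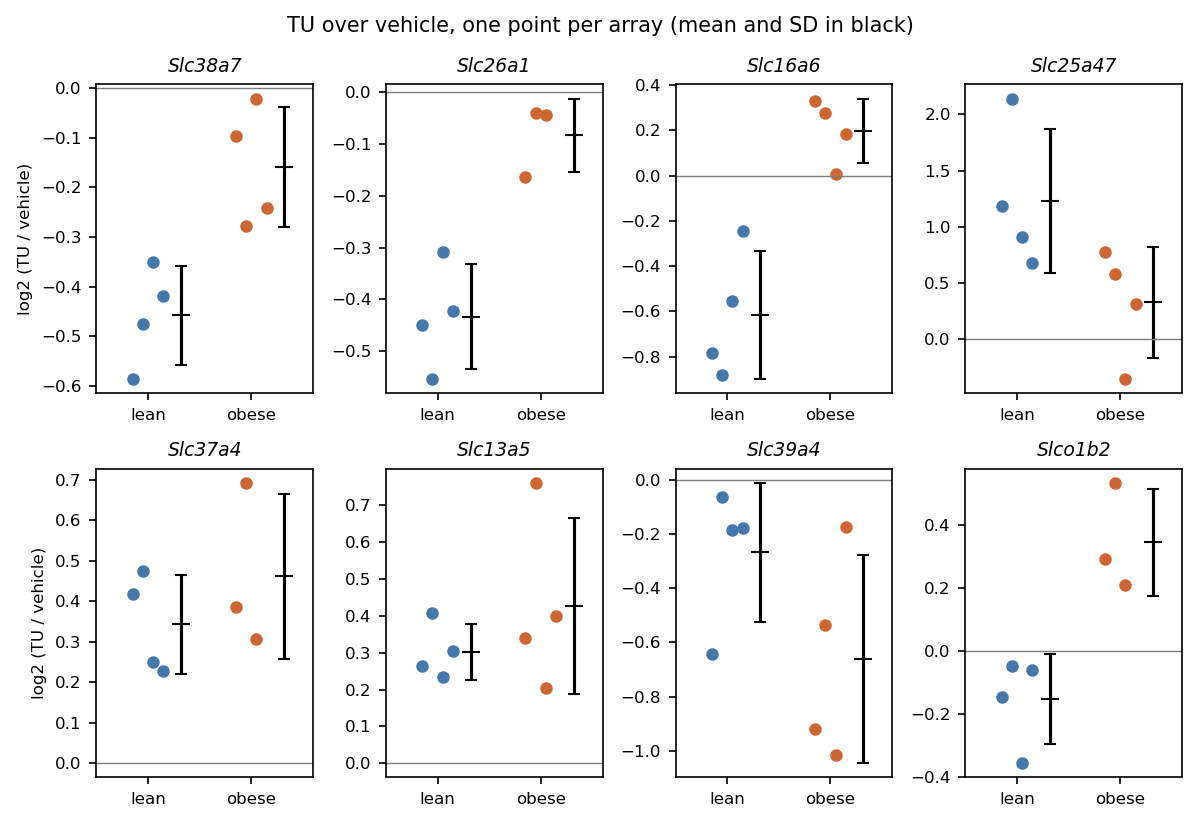
Log2 ratio of TU over vehicle for 8 carriers on each array (points), with the mean and SD of each genotype in black; y axes differ between panels and the grey line is 0. Slc38a7 and Slc26a1 lay lower on every lean array than on any obese array, Slc37a4 and Slc13a5 lay above 0 on every array measured, and Slc16a6 lay below 0 on lean and above 0 on obese arrays.

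Whether the response to TU differed between genotypes was tested as a difference. No member passed (limma, 19 at an unadjusted p under 0.05, or 8.41%, beside 7.93% of all features and 8.58% of all named genes), and 0.00415% of all features were called. The largest differences had little support. Slc16a6 had ratios of -0.79, -0.88, -0.56 and -0.25 on lean arrays and 0.33, 0.28, 0.01 and 0.18 on obese arrays. The signs were opposite on every array, and the obese minus lean difference was 0.82 ± 0.14 (adjusted p = 0.496). The gene's other passing probe had means of 0.13 in lean and -0.00 in obese rats, and the mean of both probes gave a difference of 0.34 (0.630). For Slc10a2, the sodium-coupled bile acid carrier, the difference was 0.75 ± 0.24, for the dicarboxylate carrier Slc13a3 0.60 ± 0.17 and for the creatine carrier Slc6a8 0.52 ± 0.19. It was 0.50 ± 0.11 for Slco1b2, -0.50 ± 0.13 for the mitochondrial carrier Slc25a30, 0.35 ± 0.081 for Slc26a1 and 0.30 ± 0.083 for Slc38a7 (adjusted p = 0.614 for each of these 7). For Slc25a47 it was -0.90 ± 0.34 (0.623). The lean calls of Slc38a7 and Slc26a1 were therefore not shown to be confined to lean rats.

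More members were called between obese and lean arrays than for TU, which was measured within arrays. Between obese and lean arrays, genotype cannot be told apart from slide and scan. Obese and lean rats were compared within Cy3 (vehicle) and within Cy5 (TU). Both comparisons use the same 8 arrays. Under vehicle 45 of 226 members passed, or 19.9%, beside 15% of all features and 15.7% of all named genes, with 24 higher in obese rats (all features 7.54%) and 21 lower (7.41%). Under TU 51 passed, or 22.6%, beside 20.7% of all features and 21.3% of all named genes, with 25 higher (all features 11.8%) and 26 lower (8.95%). The members' median log2 fold change was 0.034 under vehicle and 0.036 under TU, and that of all features 0.007 and 0.015. Of those called, 10 under vehicle and 4 under TU differed at least 2-fold, a count that was not made for all features. Among 49 measured transport genes of other families, 4 were higher and 6 lower under vehicle and 9 higher and 7 lower under TU, such as the sterol exporter Abcg5 (-3.42 ± 0.32 and -1.96 ± 0.27) and the lysophospholipid carrier Mfsd2a (2.82 ± 0.18 and 1.46 ± 0.27). None of these 49 was called for TU in either genotype or for the difference (limma, 11 at an unadjusted p under 0.05 in each).

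The number of calls depended on the normalization. When each channel was scaled to its own median, without loess and Aquantile, the median of all features moved to -0.17 under vehicle, and 5 members passed, or 2.21% beside 1.97% of all features. None was higher and 5 were lower: Slc30a5, Slc30a2, Slc16a6, Slc44a4 and Slc5a4. Under TU none passed in that setting, where 0% of all features were called (limma, 12 members at an unadjusted p under 0.05). Some log2 fold changes there stayed near those reported, such as 1.95 against 2.17 for Slc2a5, -1.96 against -1.93 for Slc30a5 and -1.42 against -1.38 for Slc30a2. Others shrank, such as 0.37 against 0.81 for Slc26a1 and 0.56 against 0.95 for Slc25a47. Under vehicle Slc2a5 was at 1.22 against 2.23 (limma adjusted p = 0.359), Slc39a4 at 0.08 against 1.29 (0.959) and Slc25a47 at 0.47 against 1.86 (0.616), while Slc30a5 was at -2.81 against -2.26. Quantile normalization of each channel alone gave 58 and 53 calls, beside 18.0% and 21.6% of all features. Dropping any 1 lean array left 19 to 21 calls under vehicle, beside 6.34% to 6.72% of all features. Dropping obese replicate 1, 2, 3 or 4 gave 60, 59, 47 and 31, beside 20.9%, 19.5%, 14.3% and 10.5%. With the replicate number as a block, 20 members passed under vehicle, beside 6.17% of all features, and 45 under TU, beside 19.7%. Of the called members named below, 16 of 31 under vehicle and 19 of 33 under TU kept their call without any 1 array.

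**Figure D2:**
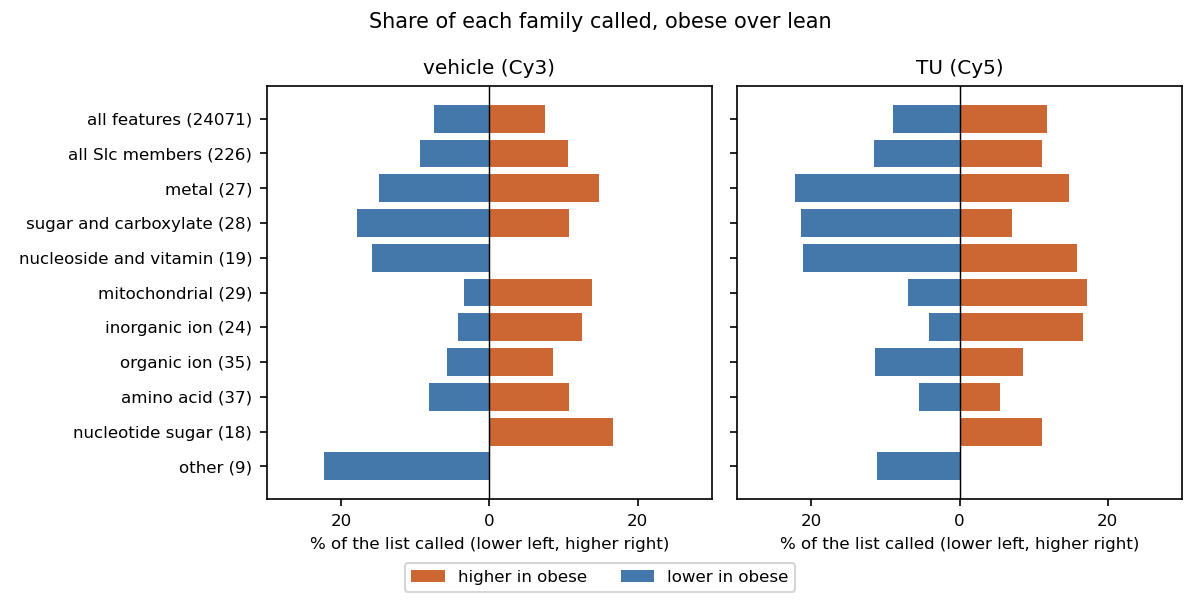
Percentage of each carrier family called as higher (right) or lower (left) in obese than lean rats, under vehicle and under TU, with the number of genes tested in parentheses; with each channel scaled to its median no member was called higher. Under TU 6 of 27 metal carriers and 6 of 28 sugar and carboxylate carriers were lower, where 8.95% of all features were lower. All calls among nucleotide sugar carriers were higher. They made up 16.7% of that family under vehicle and 11.1% under TU, beside 15% and 20.7% of all features called.

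Among 28 sugar, monocarboxylate and dicarboxylate carriers, 3 were higher and 5 lower under vehicle, and 2 higher and 6 lower under TU. The calls made up 28.6% of the family in either channel, beside 15% of all features under vehicle and 20.7% under TU. Slc2a5, the fructose carrier GLUT5, rose the most of all members. Its log2 Cy3 level was 10.15, 10.11, 10.25 and 10.22 on lean arrays and 12.45, 12.55, 12.31 and 12.36 on obese arrays. Every obese value lay above every lean value, and the spread within each group was small. It was 4.71-fold higher in obese rats under vehicle (2.23 ± 0.067, n = 4 and 4, limma adjusted p = 8.87e-06). Under TU the levels were 9.68, 9.61, 10.27 and 10.35 against 11.86, 12.18, 12.04 and 12.51, again without overlap. The difference was 4.5-fold (2.17 ± 0.21, adjusted p = 0.000739).

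Slc16a11, an orphan monocarboxylate carrier of liver, fell. Under vehicle its log2 levels were 12.58, 11.95, 12.23 and 12.46 on lean and 11.33, 10.12, 10.52 and 10.06 on obese arrays. Lean and obese rats did not overlap. It was 3.48-fold lower under vehicle (-1.80 ± 0.29, limma adjusted p = 0.00827) and 3.22-fold lower under TU (-1.69 ± 0.29, 0.00677). Slc13a3, which carries succinate and other dicarboxylates with sodium, had Cy3 levels of 13.06, 12.94, 12.47 and 12.65 against 11.79, 10.71, 11.57 and 11.63. It too was lower in every obese sample, 2.56-fold under vehicle (-1.35 ± 0.25, 0.0135) and 1.69-fold under TU (-0.76 ± 0.17, 0.0173). Slc16a6 was 2.37-fold lower under vehicle (-1.24 ± 0.25, 0.0195), and under TU its value was -0.43 (0.282). The difference between these 2 values is that of its TU responses given above, which did not pass.

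Sodium-coupled hexose carriers moved both ways. Slc5a10, which carries mannose and fructose, rose 1.58-fold under vehicle (0.66 ± 0.068, adjusted p = 0.00154 by limma) and 1.36-fold under TU (0.44 ± 0.059, 0.00233). In lean rats under TU it was well above background on 1 of 4 arrays. Slc5a4 fell 1.66-fold (-0.73 ± 0.12, 0.00888) and 1.85-fold (-0.89 ± 0.16, 0.00739). Slc45a3 was lower under vehicle (-1.17 ± 0.26, 0.0264) and Slc37a3, a sugar phosphate family member, under TU (-0.84 ± 0.20, 0.0222). The widespread glucose carrier Slc2a1 was lower under TU (-0.63 ± 0.10, 0.0049) and stood at -0.45 (0.0714) under vehicle.

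Slc5a6, which takes up biotin and pantothenate, stood at 0.19 under vehicle (0.203) and 0.23 under TU (0.242). Slc37a4, Slc13a5 and the monocarboxylate and thyroid hormone carriers Slc16a1, Slc16a7 and Slc16a10 did not pass, at -0.27, 0.09, -0.22, -0.07 and 0.00 under vehicle (limma adjusted p from 0.147 to 0.996). Slc16a6 lost its call without lean replicate 1, 2 or 3 (0.0579 to 0.0633) and where a stricter filter chose its other probe (-0.12), Slc45a3 without any 1 lean array (0.0568 to 0.0790), Slc37a3 without lean replicate 1 or 2 or obese replicate 2, 3 or 4 (0.0513 to 0.0629), and Slc13a3 under TU without lean replicate 1 or 4 (0.0522 and 0.0507). Another probe of Slc45a3 stood at 0.07 under vehicle and another of Slc37a3 at 0.04 under TU.

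**Figure D3:**
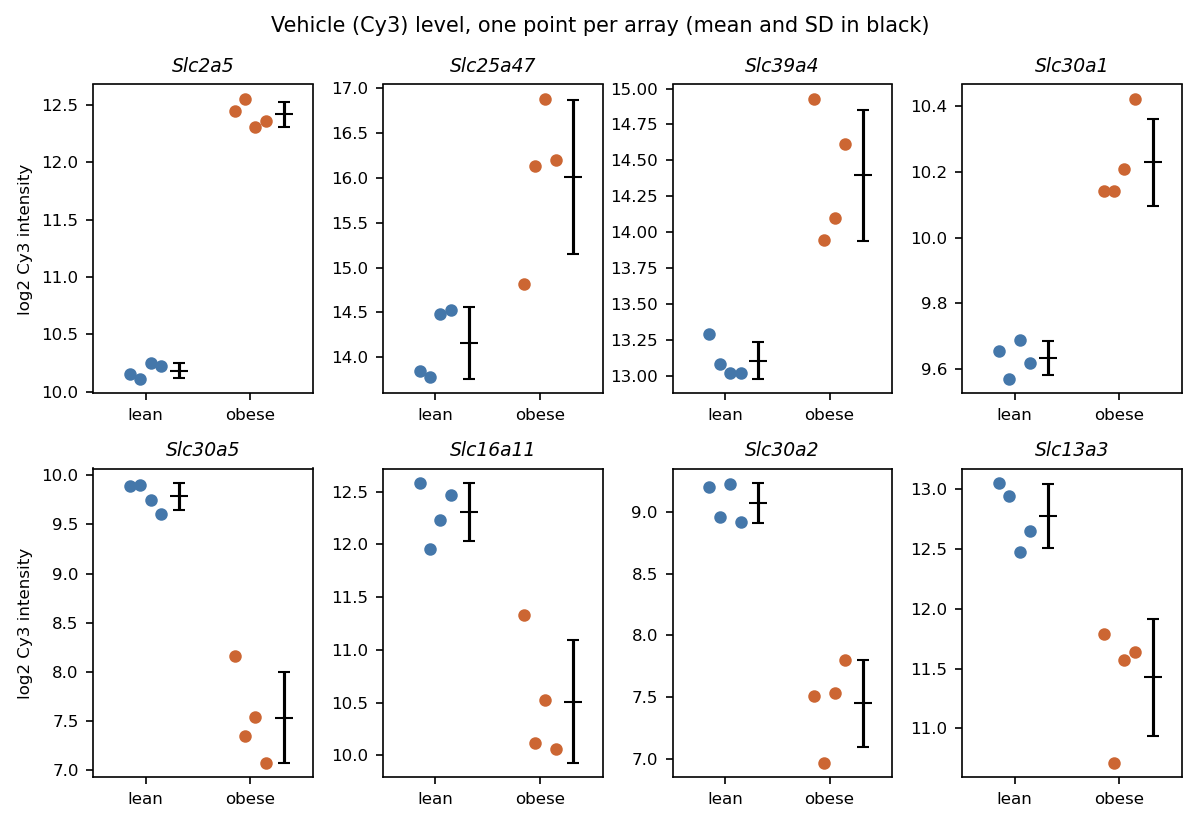
Log2 Cy3 intensity under vehicle of 8 carriers on each array (points), with the mean and SD of each genotype in black; y axes differ between panels. Slc2a5, Slc25a47, Slc39a4 and Slc30a1 were higher on every obese array, and Slc30a5, Slc16a11, Slc30a2 and Slc13a3 lower, without overlap.

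Of 27 metal carriers measured, 4 were higher and 4 lower under vehicle, and 4 higher and 6 lower under TU. Together the calls were 29.63% of the family under vehicle and 37.04% under TU, beside 15% and 20.7% of all features. Slc30a5, which loads zinc into the secretory pathway, fell the most of all members by its brightest probe. In Cy3 it had log2 levels of 9.89, 9.90, 9.75 and 9.61 on lean and 8.16, 7.35, 7.54 and 7.07 on obese arrays. Every obese value lay below every lean one. It was 4.78-fold lower under vehicle (-2.26 ± 0.22, limma adjusted p = 0.00117) and 3.81-fold lower under TU (-1.93 ± 0.22, 0.00129). The gene has 2 other passing probes, which disagreed. They stood at -0.21 and 0.65 under vehicle and at 0.16 and 0.56 under TU.

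Slc30a2, which fills zinc vesicles, was lower by both of its probes. On the log2 scale its Cy3 values were 9.20, 8.95, 9.23 and 8.91 against 7.51, 6.96, 7.53 and 7.80. The groups did not overlap. It was 3.08-fold lower under vehicle (-1.63 ± 0.18, limma adjusted p = 0.00186) and 2.60-fold lower under TU (-1.38 ± 0.13, 0.0007), and its other probe stood at -0.84 and -0.87. Slc30a1, the zinc exporter of the plasma membrane, rose instead. Its Cy3 levels were 9.65, 9.57, 9.69 and 9.62 on lean and 10.14, 10.14, 10.21 and 10.42 on obese arrays, with little spread in either group. The differences were 1.51-fold (0.60 ± 0.074, 0.00286) and 1.70-fold under TU (0.77 ± 0.11, 0.0028).

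Zinc importers were split. Slc39a4 had Cy3 levels of 13.29, 13.08, 13.02 and 13.02 on lean and 14.93, 13.94, 14.10 and 14.61 on obese arrays. It was higher on every obese array, 2.45-fold under vehicle (1.29 ± 0.21, limma adjusted p = 0.00914), and under TU it stood at 0.90 (0.0527). Slc39a14, which also takes up iron and manganese, was higher under TU (0.84 ± 0.16, 0.00996) and at 0.86 (0.0685) under vehicle. Its other 3 probes gave 0.54, 0.27 and -0.97 under TU, and the mean of its probes was not called (0.17, 0.266). Slc39a8, an importer of manganese and zinc, was lower under TU (-0.65 ± 0.15, 0.0199) and at -0.59 (0.0805) under vehicle, and one of its other probes was at 0.13. The copper importer Slc31a1 fell 1.70-fold under vehicle (-0.77 ± 0.20, 0.0424) and 1.88-fold under TU (-0.91 ± 0.16, 0.00735), and Slc30a9 rose (0.49 ± 0.070, 0.00515, and 0.46 ± 0.10, 0.0162). Slc39a10 was higher under vehicle (0.20 ± 0.051, 0.0386) and at 0.02 under TU, where it was well above background on no lean array and 1 obese array.

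The iron exporter Slc40a1, the iron importer Slc11a2, the haem carrier Slc48a1 and the manganese exporter Slc30a10 did not pass, at -0.29, -0.06, 0.46 and 0.15 under vehicle and 0.01, -0.05, 0.20 and 0.12 under TU (limma adjusted p from 0.184 to 0.962). A second probe of Slc40a1 was at 0.29 under vehicle. Slc31a1 lost its call under vehicle without any 1 lean array or obese replicate 3 or 4 (0.0763 to 0.112), Slc39a10 without any 1 lean array or obese replicate 4 (0.0700 to 0.110), and Slc39a8 without lean replicate 1 or 4 (0.0531 and 0.0568). Slc30a9 lost its under TU without lean replicate 4 (0.0501) and with the replicate number as a block (0.0555), and Slc30a1 under vehicle from processed signals (0.0563).

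**Figure D4:**
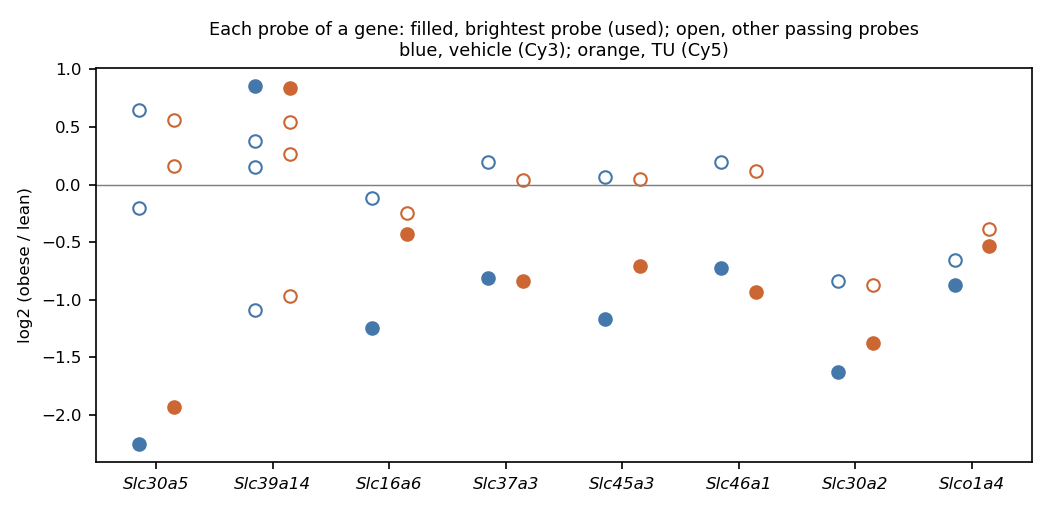
Log2 fold change of obese over lean for each passing probe of 8 genes, under vehicle (blue) and under TU (orange); the filled point is the brightest probe, which represents the gene, and open points are its other probes. For Slc30a5 and Slc39a14 probes lay on both sides of 0 by over 0.5, while both probes of Slc30a2 and of Slco1a4 lay below 0.

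Of 29 mitochondrial carriers, 4 were higher and 1 lower under vehicle, and 5 higher and 2 lower under TU, though none was higher with median scaling. The share called was 17.2% under vehicle and 24.1% under TU, beside 15% and 20.7% of all features. Slc25a47 had Cy3 levels of 13.84, 13.77, 14.48 and 14.53 on lean and 14.82, 16.14, 16.89 and 16.20 on obese arrays. The groups did not overlap but both spread widely. It was 3.62-fold higher under vehicle (1.86 ± 0.42, limma adjusted p = 0.0276) and 1.94-fold higher under TU (0.95 ± 0.28, 0.0450), where the groups did overlap. Slc25a11, which exchanges oxoglutarate for malate, rose 1.73-fold under vehicle (0.79 ± 0.18, 0.0293) and 1.47-fold under TU (0.56 ± 0.12, 0.0144). Slc25a10, the dicarboxylate carrier, was higher under TU (0.76 ± 0.17, 0.0190) and at 1.19 (0.0569) under vehicle.

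Slc25a46, which sits in the outer membrane and acts in mitochondrial dynamics, rose. The Cy3 levels were 7.89, 7.90, 8.09 and 7.92 against 8.35, 8.5, 8.71 and 8.55, without overlap. The differences were 0.58 ± 0.086 (limma adjusted p = 0.00622) and 0.69 ± 0.070 under TU (0.000853). Slc25a30 was higher under vehicle (0.77 ± 0.096, 0.00287) and at 0.27 (0.205) under TU. The adenine nucleotide carrier Slc25a4 fell 1.39-fold under vehicle (-0.47 ± 0.12, 0.0374) and 1.70-fold under TU (-0.76 ± 0.18, 0.0215). Slc25a23, which exchanges ATP-Mg for phosphate, fell under TU (-0.96 ± 0.20, 0.0134). The ornithine carrier of the urea cycle Slc25a15, the coenzyme A carrier Slc25a42, the glutamate carrier Slc25a22, Slc25a25 and the more abundant adenine nucleotide carrier of liver Slc25a5 were at 0.51, 0.43, 0.28, 0.39 and 0.00 under vehicle (0.0724 to 0.990).

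Slc25a47 lost its call under vehicle without any 1 lean array or obese replicate 4 (limma adjusted p from 0.0608 to 0.0828), and under TU without lean replicate 1, 3 or 4 or obese replicate 2, 3 or 4 (0.0959 to 0.117). Slc25a11 lost its under vehicle without any 1 lean array or obese replicate 4 (0.0644 to 0.0833), and in both channels from processed signals (0.46, 0.174, and 0.23, 0.196). Slc25a4 lost its under vehicle without lean replicate 2, 3 or 4 or obese replicate 1 or 4 (0.0555 to 0.108) and under TU without lean replicate 1, 3 or 4 (0.0536 to 0.0624), and Slc25a10 without lean replicate 3 (0.0518).

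Of 35 carriers of organic anions and cations, 3 were higher and 2 lower under vehicle, and 3 higher and 4 lower under TU. In all 14.3% and 20.0% were called, beside 15% and 20.7% of all features. Slco2a1, the prostaglandin carrier, rose. Its Cy3 levels were 8.10, 7.99, 7.79 and 8.01 on lean and 8.80, 9.996, 8.85 and 8.95 on obese arrays, where obese replicate 2 was far above the rest. In Cy5 the levels were 7.93, 7.97, 7.67 and 7.77 against 8.96, 8.54, 8.90 and 8.85, with no array apart. It was 2.26-fold higher under vehicle (1.18 ± 0.26, limma adjusted p = 0.0250) and 1.97-fold under TU (0.98 ± 0.11, 0.00116).

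Slc17a3, an anion and urate carrier, fell. Its Cy3 levels were 11.84, 12.07, 12.27 and 12.01 on lean and 11.15, 11.30, 11.03 and 11.56 on obese arrays, without overlap. The differences were -0.79 ± 0.13 (limma adjusted p = 0.0100) and -0.98 ± 0.26 under TU (0.0323). Slc22a17, a lipocalin receptor, was lower under vehicle (-0.83 ± 0.22, 0.0456) and Slc22a25 higher (0.52 ± 0.14, 0.0492, and 0.55 ± 0.14, 0.0269 under TU). Slco1a4, an uptake carrier of bile acids and steroid conjugates, was 1.45-fold lower under TU (-0.54 ± 0.13, 0.0204) and at -0.87 (0.113) under vehicle.

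The uptake carriers Slco1a1, Slco1b2 and Slco2b1 stood at -0.17, -0.40 and 0.49 under vehicle, the anion carriers Slc22a7 and Slc22a8 at 0.20 and -0.31, the phosphate and anion carriers Slc17a1 and Slc17a2 at 0.20 and 0.08, and the carnitine carrier Slc22a5 at 0.09 (limma adjusted p from 0.140 to 0.833). Under vehicle Slco2a1 lost its call without any 1 lean array (0.0635 to 0.0769), Slc22a17 without any 1 lean array or obese replicate 2 (0.0622 to 0.118) and Slc22a25 without any 1 array but obese replicate 2 (0.0553 to 0.128). Under TU Slc17a3 lost its without lean replicate 3 or 4 or obese replicate 2 (0.0789 to 0.0870) and Slc22a25 without lean replicate 1, 2 or 3 or obese replicate 2, 3 or 4 (0.0504 to 0.0725). Slco1a4 lost its without lean replicate 1 or 2 (0.0544 and 0.0520) and from processed signals (0.276).

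Of 37 amino acid carriers, 4 were higher and 3 lower under vehicle, and 2 higher and 2 lower under TU. This came to 18.9% called under vehicle and 10.8% under TU, beside 15% and 20.7% of all features. Slc1a2, the glutamate carrier of the pericentral hepatocyte, had Cy3 levels of 8.22, 8.55, 8.17 and 8.21 on lean and 7.16, 7.37, 8.02 and 7.75 on obese arrays. Obese replicate 3 came closest to the lean range. It fell 1.64-fold under vehicle (-0.71 ± 0.19, limma adjusted p = 0.0454) and was at -0.61 (0.0519) under TU. Slc6a13, a GABA and taurine carrier of liver, fell 1.76-fold under TU (-0.82 ± 0.18, 0.0163), and Slc7a2, which brings arginine into hepatocytes, rose 1.34-fold under vehicle (0.42 ± 0.10, 0.0314).

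The glutamine carriers Slc38a3, Slc38a2 and Slc38a4 stood at 0.43, 0.68 and -0.54 under vehicle, the heavy chain Slc3a2 at 0.64, the taurine carrier Slc6a6 at -0.12, Slc6a8 at -0.84 and the branched-chain amino acid carrier Slc43a1 at 0.02 (limma adjusted p from 0.0553 to 0.953). Slc7a5, Slc1a4 and the heavy chain Slc3a1 were not well above background on all arrays, and none was called. Slc1a2 lost its call under vehicle without any 1 array but obese replicate 3 (0.0536 to 0.119), Slc7a2 without any 1 lean array or obese replicate 4 (0.0645 to 0.0903) and by the mean of its probes (0.23, 0.220), and Slc6a13 under TU without lean replicate 4 (0.0507) and with the replicate block (0.0520).

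Of 24 carriers of inorganic ions, 3 were higher and 1 lower under vehicle, and 4 higher and 1 lower under TU. Calls made up 16.7% and 20.8% of the family, beside 15% and 20.7% of all features. The phosphate carrier Slc20a1 was higher under TU (0.53 ± 0.11, 0.0116) and under vehicle (0.48 ± 0.13, 0.0466), with 0.61 in both for its other probe. The call of Slc20a1 under vehicle was lost without any 1 array but obese replicate 2 (0.0511 to 0.125).

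Slc26a1, whose ratio of TU over vehicle was called lower in lean rats, was 1.75-fold higher in obese than lean rats under TU. Its Cy5 levels were 13.71, 13.80, 13.79 and 13.42 on lean and 15.02, 14.31 and 14.15 on obese arrays, without overlap (0.81 ± 0.21, n = 4 and 3, limma adjusted p = 0.0384). Under vehicle the groups overlapped, at 14.16, 14.36, 14.10 and 13.85 against 15.18, 14.35 and 14.19 (0.46 ± 0.25, 0.267). The call under TU was lost without any 1 lean array or obese replicate 2 (0.0615 to 0.0968) and with the replicate block (0.72, 0.0900). The phosphate carrier Slc34a2 was at 0.77 and the bicarbonate carrier Slc4a4 at 0.19 under vehicle (0.103 and 0.487).

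Of 19 carriers of nucleosides and vitamins, none was higher and 3 were lower under vehicle, and under TU 3 were higher and 4 lower. Called in all were 15.8% under vehicle and 36.8% under TU, beside 15% and 20.7% of all features. Slc28a2, which takes up purine nucleosides with sodium, had Cy5 levels of 8.71, 8.71, 8.75 and 8.71 on lean and 8.18, 8.09, 8.19 and 8.03 on obese arrays. Both groups were tight and apart. It was 1.51-fold lower under TU (-0.60 ± 0.054, limma adjusted p = 0.000613) and 1.66-fold lower under vehicle (-0.73 ± 0.20, 0.0468). The equilibrative nucleoside carrier Slc29a1 was higher under TU (0.55 ± 0.16, 0.0417) and at 0.35 (0.147) under vehicle. Slc44a4, a choline and thiamine pyrophosphate carrier, fell 1.84-fold (-0.88 ± 0.15, 0.0111) and 1.44-fold (-0.53 ± 0.11, 0.0136), and Slc46a1, the proton-coupled folate carrier, was lower under TU (-0.93 ± 0.27, 0.0466).

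The thiamine carrier Slc19a2 was at -0.60 under vehicle, with its other probe at -0.22, Slc46a3 at 0.20 and the vitamin C carrier Slc23a2 at -0.01 (limma adjusted p from 0.332 to 0.914). Slc28a2 lost its call under vehicle without any 1 array but obese replicate 1 (0.0562 to 0.123). Under TU Slc46a1 lost its without any 1 lean array or obese replicate 2 or 4 (0.0766 to 0.116), and its other probe was at 0.12. Slc29a1 lost its without lean replicate 1, 2 or 3 or obese replicate 1, 3 or 4 (0.0541 to 0.103), and Slc44a4 lost its with the replicate block (0.0507).

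Of 18 carriers of nucleotide sugars and other substrates of the secretory pathway, 3 were higher and none lower under vehicle, and 2 higher and none lower under TU (limma, 7 and 6 at an unadjusted p under 0.05), though none was higher with median scaling. The family's share called was 16.7% and 11.1%, beside 15% and 20.7% of all features. Slc35d2, a carrier of UDP-sugars into the Golgi, had Cy3 levels of 7.94, 7.63, 7.82 and 8 against 8.49, 8.49, 8.51 and 8.53. The obese values were almost equal. It was 1.58-fold higher under vehicle (0.66 ± 0.082, adjusted p = 0.00287) and 1.55-fold under TU (0.63 ± 0.12, 0.00866). Slc33a1, which brings acetyl-CoA into the endoplasmic reticulum, rose 1.40-fold (0.49 ± 0.093, 0.0150) and 1.33-fold (0.41 ± 0.072, 0.00697). Without lean replicate 4 its call under vehicle was lost (0.0529). Slc35d1 was at 0.23 under vehicle (0.0634). Among the 9 remaining carriers none was higher, and 2 were lower under vehicle and 1 under TU. That is 22.2% and 11.1%, beside 15% and 20.7% of all features. Slc18a2, which fills vesicles with monoamines, was among those lower under vehicle (-0.49 ± 0.087, 0.0116) and at -0.18 (0.333) under TU.

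**Figure D5:**
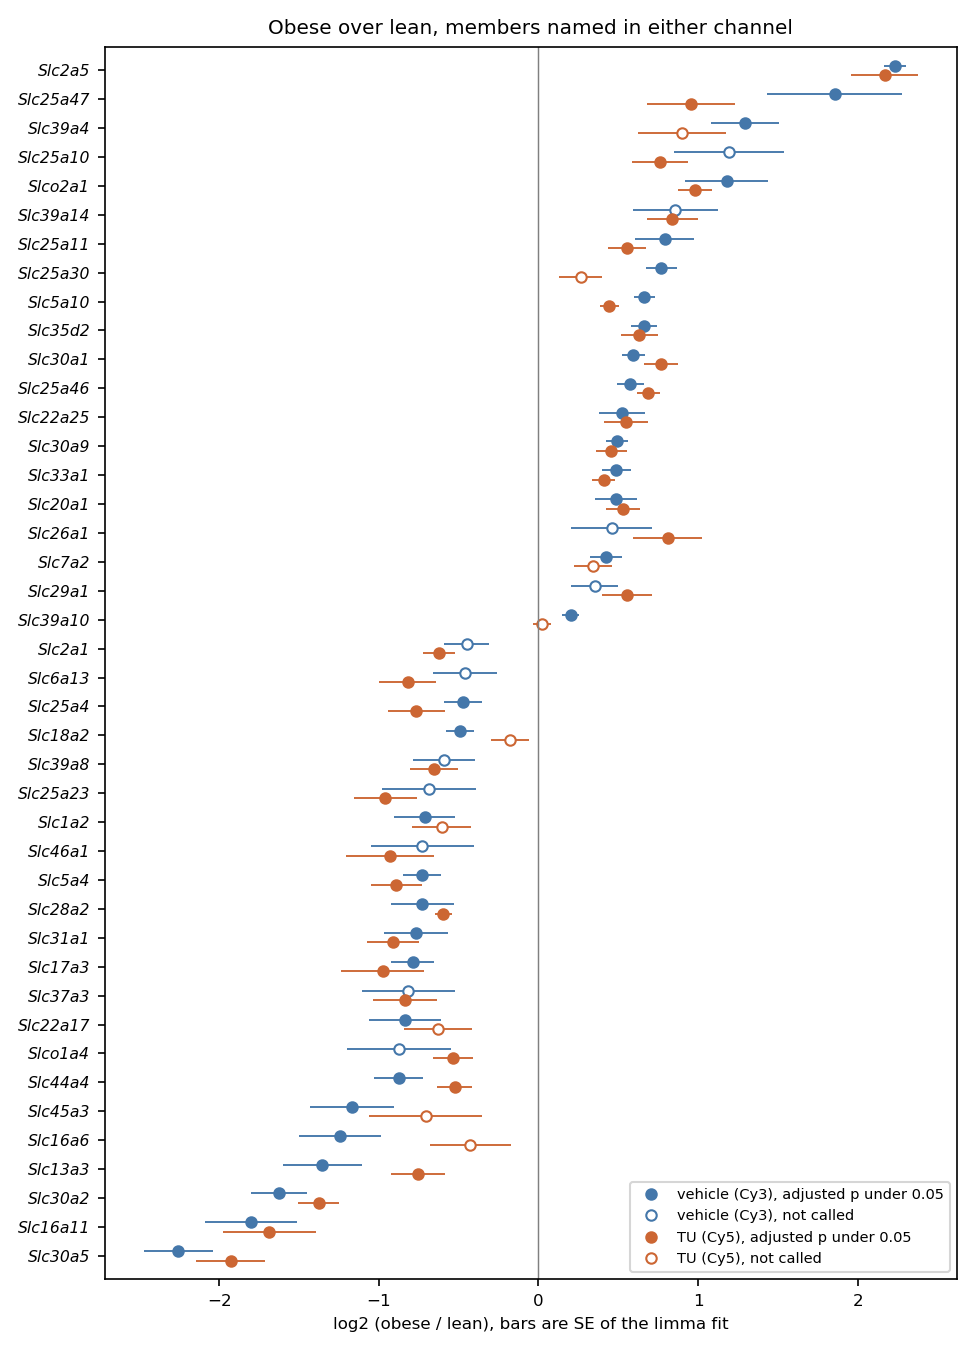
Log2 fold change of obese over lean with its SE for the carriers named in either comparison, under vehicle (blue) and under TU (orange); filled points passed an adjusted p of 0.05. Slc2a5 lay highest and Slc30a5 lowest in both channels. Slc25a30, Slc16a6, Slc45a3 and Slc18a2 were among the carriers that passed under vehicle and not under TU. Slc25a10 and Slc2a1 were among those that passed under TU and not under vehicle. Such a difference between channels was not called for any carrier.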

How the data were processed

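The authors' deposited scanner files, made with Agilent Feature Extraction 10.7.3.1 per the file headers, give median signal and background intensity per spot and channel, processed intensity and a log10 ratio. Per the labels' protocols, RNA came from 100 mg of liver and 0.2 µg was labelled. The scale of the authors' deposited series values matched log2 of TU over vehicle (slope of 3.32 against the log10 ratio), and their centring is unknown. The quality flags in the deposited files (0 or 1) are set by the scanner software and are not a measured quantity.

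Here, median signals were corrected with limma 3.58.1 (R 4.3.3) by normexp with an offset of 50, normalized by loess within arrays and, for the single channels, Aquantile between arrays. Control spots and outlier flags were left out. A probe was kept where Cy3 or Cy5 was well above background on 4 or more arrays, and the brightest probe stood for each gene. Accessions were named through a RefSeq gene table, which named 16815 of 41012 probes, and an older platform annotation named 195 more. Ratios were tested for TU in each genotype and for the difference, and each channel for obese over lean, with Benjamini-Hochberg adjustment over all features and a threshold of 0.05. The scripts were tested on simulated data.

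The members and lists were chosen with earlier results of these data known. Named were members past the threshold (at most 15 per direction), the 10 smallest p-values where fewer than 10 passed, and a fixed roster of liver carriers, with called members of either described in both channels. A few items that the rule names are not reported here. Of the roster, Slc47a1, Slc51a and Slc1a1 were below the limit and Slc51b, Slc2a9, Slc7a1, Slc25a13 and Slc12a7 had no probe named here. Arrays of both genotypes carry replicate numbers that equal the position on the slide. Same-numbered Cy5 samples deviated together (correlations 0.61, 0.17, 0.44 and 0.24 for numbers 1 to 4), so blocked values stand beside Cy5 results where a call changed. In Cy3 the correlations were 0.62, 0.06, 0.40 and -0.06, and in the ratios 0.05, -0.10, 0.16 and -0.01. Calls that the block ended in Cy3 are listed at the end. Alternatives were another background correction, processed signals, the authors' values, other normalizations, filters, probe rules, variance models and samples in the fit, and leaving out each array. The number of arrays limits the precision.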

Additional observations from a re-analysis of the deposited data

Results flagged for a closer look

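In 4 carriers the TU response had opposite signs on every array of the 2 genotypes. No share of all features with such signs stands beside this count, and the 4 are given as values only. The obese minus lean difference was 0.82 for Slc16a6, -0.50 for Slc25a30, 0.60 for Slc13a3 and 0.52 for Slc6a8 on the log2 scale, and none passed in limma's test of the difference (adjusted p = 0.496 for Slc16a6 and 0.614 for the others). For Slc16a6 this holds for its brightest probe, while its other probe had means of 0.13 in lean and -0.00 in obese rats. Obese replicate 2, whose ratios spread most, held the value farthest from 0 in obese rats for Slc25a30, Slc13a3 and Slc6a8.

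Relative to the range of their group, single samples stood apart from the 3 others in 11 of 157 groups screened among the named carriers, where chance flags about 1 in 20. In Cy3 these were Slco2a1 on obese replicate 2 (log2 level 9.996, others 8.80 to 8.95), Slc25a46 on lean replicate 3 (8.09), Slc30a9 on obese replicate 1 (7.95), Slc44a4 on obese replicate 2 (7.33) and Slc1a2 on lean replicate 2 (8.55). In Cy5 they were Slc25a10 on lean replicate 3 (11.99), Slc30a9 on lean replicate 1 (7.85) and on obese replicate 1 (7.87), Slc5a4 on obese replicate 1 (7.62), Slc33a1 on obese replicate 4 (10.51, others 10.39 to 10.40) and Slc28a2 on lean replicate 3 (8.75, others all 8.71), the last in a group of very small range.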

How the results depend on the processing

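The count of members called for TU in lean rats, 2 in the reported setting, was 6 without background correction, 57 with median centring, 1 with the stricter filter, and 0 with ratios scaled between arrays, with trend and robust settings or with the replicate block (limma, 34, 29 and 39 at an unadjusted p under 0.05). Leaving out each array gave 0 to 16, where 0.00415% to 4.61% of all features were called. Of all features 1.47% were called without background correction, 23.8% with median centring, 0.279% with the stricter filter and 0.0914% with the replicate block. In obese rats the count of members was 1 without background correction and 2 from processed signals or the authors' log ratios, beside 0.344%, 0.825% and 0.808% of all features. No setting called a member for the difference (limma, 13 to 85 at an unadjusted p under 0.05). Under vehicle the 45 calls became 5 with median scaling per channel and 20 with the replicate block, and leaving out each array gave 19 to 60. The shares of all features called were 1.97%, 6.17% and 6.34% to 20.9%. Under TU the 51 became 0 with median scaling (limma, 12 at an unadjusted p under 0.05) and 45 with the block, and leaving out each array gave 34 to 71. Among all features these settings called 0%, 19.7% and 13.3% to 31.9%. With median scaling 5 of the called carriers named changed sign under vehicle: Slc25a11 (-0.22), Slc30a1 (-0.24), Slc33a1 (-0.39), Slc20a1 (-0.17) and Slc7a2 (-0.028). The cause was not tested. Among the 33 called carriers named under TU, the block ended the calls of Slc26a1, Slc30a9, Slc6a13 and Slc44a4 and of no other. In Cy3 and in the ratios same-numbered samples did not deviate together for every number. There the block ended the lean calls of Slc38a7 (0.0811) and Slc26a1 (0.117). Under vehicle it ended those of Slco2a1, Slc25a11, Slc22a25, Slc33a1, Slc13a3, Slc45a3, Slc22a17, Slc31a1, Slc28a2, Slc1a2, Slc18a2, Slc20a1, Slc7a2 and Slc39a10 (0.0504 to 0.128). Processed signals also ended the calls of Slc33a1 (0.192), Slc16a6 (0.151) and Slc20a1 (0.136) under vehicle and of Slc33a1 (0.268), Slc29a1 (0.325), Slc20a1 (0.0622), Slc25a47 (0.0631) and Slc39a8 (0.0609) under TU. Both channels in the same fit ended those of Slc25a10 (0.0968), Slc25a47 (0.0799) and Slco1a4 (0.168) under TU. Trend and robust settings ended those of Slc25a4 (0.0544), Slc33a1 (0.0514), Slc20a1 (0.0645) and Slc7a2 (0.0540) under vehicle. Without the filter, calls ended under vehicle for Slc22a25, Slc22a17, Slc31a1, Slc28a2, Slc1a2 and Slc20a1 (0.0581 to 0.0656). Under TU that setting ended those of Slc25a47, Slc26a1, Slc29a1 and Slc46a1 (0.0556 to 0.0684). Carriers near background, such as Slc2a10, have folds that the signal over background limits.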
